A study of Mus musculus with 6 samples.

Results

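Enzyme genes of proline, glutamine, asparagine and serine metabolism were followed in jejunal intestinal epithelial cells (IEC) with and without the histone deacetylases Hdac1 and Hdac2. The 9 genes were Prodh, Prodh2, Pycr1, Aldh18a1, Glul, Asns, Psat1, Phgdh and Shmt2, out of 19616 genes in the table. They were picked by name, with their levels in this comparison already known, so their values are given as a description without a test. All 9 passed the filter on low counts that left 15618 genes.

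RNA-Seq had been made from EDTA-enriched jejunal IEC of 6 mice aged 3 months, 1 poly(A) library per mouse. The 3 controls (C1, C3 and C3-3) were wildtype and the 3 others (H1, H5 and H9) were Hdac1/2-/-, that is villin-Cre Hdac1-/-; Hdac2-/-. The mice were of a mixed strain background, and the floxed alleles were cut by Cre under the villin promoter, active in the intestinal epithelium and not in the blood, muscle or connective tissue cells that can come off with it. Each library held 36111035 to 65902344 counts.

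Proline is made from glutamate, by way of pyrroline-5-carboxylate (P5C), by Aldh18a1 and then by a P5C reductase such as Pycr1, and it is broken down to P5C again by proline dehydrogenase, Prodh. Glutamine synthetase, Glul, joins ammonia to glutamate, and asparagine synthetase, Asns, takes the amide of glutamine to make asparagine. Serine is branched off glycolysis by Phgdh, Psat1 and Psph, and the mitochondrial enzyme Shmt2 splits it into glycine and a folate-bound one-carbon unit used for nucleotides. In the small intestine glutamine is a main fuel of the epithelium, which also turns glutamine into proline, ornithine and citrulline.

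The label was first set against the targeted genes and cell markers. Hdac1 mRNA fell from 40.8 ± 7.33 CPM (counts per 1000000 library counts; SD, n = 3) to 3.77 ± 1.16 (log2 fold change -3.43, adjusted p = 2.9e-05, edgeR), in 3 of 3 libraries. Hdac2 stood at 27.7 ± 4.72 and 24.5 ± 2.7 (log2 fold change -0.18, adjusted p = 0.44, edgeR), so its mRNA does not separate the groups, and exon counts that could show a deleted stretch were not analysed here. The groups are therefore named as labelled. The 10 epithelial markers summed to 20312 ± 1233 CPM in control and 15607 ± 1615 CPM in Hdac1/2-/- libraries. They did not move as one, with 5 log2 fold changes above 0 and a median of -0.19. Called were 1 higher, Krt18, and 1 lower, Fabp2 (20% called, against 25.2% of all genes tested). Fabp2 fell from 3398 to 774 CPM and Krt18 rose from 170 to 344 CPM, a call lost without H5 or C3. The 14 blood and immune markers summed to 113 to 152 CPM in control and 86 to 141 CPM in Hdac1/2-/- libraries. In C1, Jchain alone held 59.6 CPM. Of the 12 tested, 3 were called higher and 2 lower (41.7% called, against 25.2% of all genes tested). Cd79b rose from 1.15 to 32.7 CPM, Csf1r from 3.65 to 12.3 CPM and Cd4 from 0.649 to 2 CPM, whereas Cd3g and Cd8a fell. Cd4 lost its call without H9, and Cd3g and Cd8a kept theirs in only 2 and 1 of 6 fits that left out 1 library. The 13 fibroblast, muscle and endothelial markers summed to 16.2 to 72.4 CPM in control and 11.1 to 16 CPM in Hdac1/2-/- libraries, with 4 of the 10 tested called lower, against 12.7% of all genes tested. Of these 4, Dcn lost its call without H1, H5 or C1, Myh11 and Des lost theirs without H1 or H9, and Acta2 kept it. No listed marker was at 0 in all libraries. The part of these other cells in the levels below was not tested, and in such bulk samples fewer cells of a type and less RNA per cell cannot be told apart. The Y-linked genes summed to 3082 counts in C3 and to 1 to 13 counts in each other library, so C3 stands apart from the rest in this. Estimates without it are given for the genes where it moved them most.

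Among the 9 genes, the hydroxyproline dehydrogenase Prodh2 and the mitochondrial Shmt2 were higher in every Hdac1/2-/- library than in any control, and Prodh, Pycr1 and Aldh18a1 were lower in every one. The levels of Glul, Asns, Psat1 and Phgdh overlapped between the groups. Non-overlap was thus seen for 5 of 9 genes, 2 higher and 3 lower, and over all genes tested for 53.2%, 26.7% higher and 26.6% lower. To be called, a gene had to change 2-fold or more with an adjusted p no larger than 0.05. This rule was met by 4 of 9, namely Prodh2, Shmt2 and Phgdh higher and Pycr1 lower, against 25.2% of all genes tested, 12.4% higher and 12.7% lower. The 9 log2 fold changes had a median of 0.15, with 5 above 0 and 4 below, and the median over all genes tested was -0.01. Since the 9 genes were chosen on this contrast, nothing is read from those shares.

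**Figure D1:**
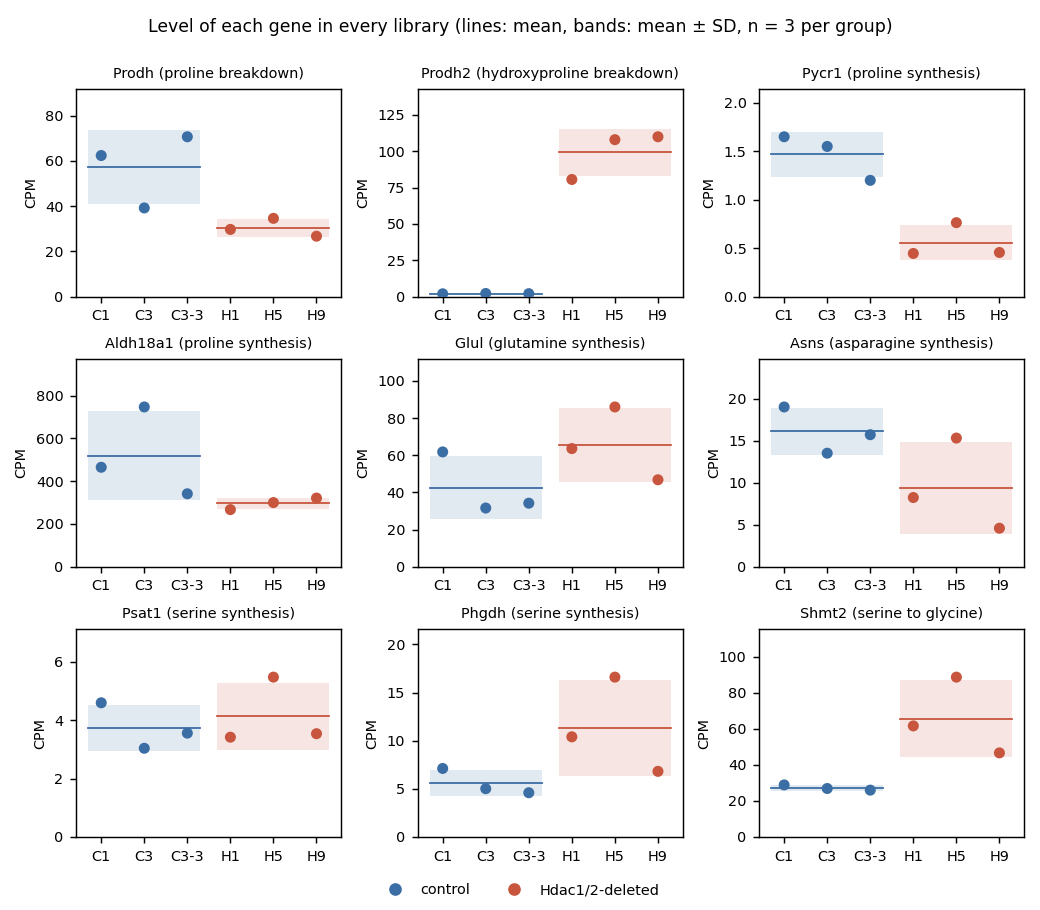
Level of each of the 9 genes in CPM (vertical axes, each from 0) in the 3 control libraries (blue) and the 3 Hdac1/2-deleted libraries (red), with the group mean as a line and mean ± SD as a band. Prodh2 and Shmt2 lie higher and Prodh, Pycr1 and Aldh18a1 lower in all Hdac1/2-deleted libraries, and for the other genes the points of the groups overlap.

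Promoter windows of the 9 genes were read from RefSeq (GRCm38.p6), each from 250 bases before to 50 after an annotated start. The core of the C/EBP-ATF response element, through which ATF4 acts when amino acids run short, was searched as TGATGNAA on both strands (TTNCATCA on the other). It lay in 2 of 9 genes, Asns and Pycr1, and in 3.97% of all 32817 windows of the same length. Below are these 2 windows, which share the match, and that of Prodh2, the gene with the largest difference, which holds none. Capitals mark the match, which lies at -23 to -16 from the start in Asns and at -103 to -96 in Pycr1. The Asns window is chr6:7693160-7693459 on the minus strand, that of Pycr1 is chr11:120643699-120643998 on the minus strand and that of Prodh2 is chr7:30493408-30493707 on the plus strand.
Asns: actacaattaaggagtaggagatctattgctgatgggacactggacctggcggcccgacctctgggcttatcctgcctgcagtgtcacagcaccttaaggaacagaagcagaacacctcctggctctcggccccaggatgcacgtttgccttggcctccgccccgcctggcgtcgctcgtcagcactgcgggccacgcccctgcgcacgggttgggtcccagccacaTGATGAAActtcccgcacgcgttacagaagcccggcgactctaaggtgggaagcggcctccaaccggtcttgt
Pycr1: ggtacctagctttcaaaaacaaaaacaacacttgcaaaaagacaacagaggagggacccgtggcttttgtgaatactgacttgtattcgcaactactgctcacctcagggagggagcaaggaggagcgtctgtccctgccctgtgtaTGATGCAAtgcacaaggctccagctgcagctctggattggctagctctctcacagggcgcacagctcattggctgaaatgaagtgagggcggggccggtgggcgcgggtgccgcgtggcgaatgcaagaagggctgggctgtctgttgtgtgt
Prodh2: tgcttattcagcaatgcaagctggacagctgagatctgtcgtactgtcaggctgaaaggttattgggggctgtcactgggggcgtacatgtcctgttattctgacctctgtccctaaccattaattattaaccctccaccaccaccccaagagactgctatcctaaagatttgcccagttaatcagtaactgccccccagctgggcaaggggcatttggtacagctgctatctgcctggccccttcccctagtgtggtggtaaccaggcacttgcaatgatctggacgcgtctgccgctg

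The E-box CACGTG, a palindrome, was found in the window of Aldh18a1 at -59 to -54 and in 7.15% of all windows. The palindromic cyclic AMP response element TGACGTCA was in 0 of 9 genes and in 1.79% of all windows. A match is a string of letters and not a mapped binding site, and the 7 genes without the ATF4 core were only searched in these windows.

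Prodh2 lies on chromosome 7 (30493622 to 30513402, plus strand, GRCm38) and encodes the enzyme that starts the breakdown of hydroxyproline, an amino acid released from collagen. Its level was 1.89, 2.11 and 1.99 CPM in C1, C3 and C3-3 and 80.6, 108 and 110 CPM in H1, H5 and H9. The groups were far apart, and the 3 controls differed by less than the Hdac1/2-/- libraries did. On the log2 scale the difference was 5.63 (SE 0.19), or 49.7-fold, and with each library left out it was 5.56 to 5.77. It rested on 106 to 125 counts per control library and 4088 to 6739 per Hdac1/2-/- library.

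Prodh2 is otherwise known from liver and kidney, so hepatocyte markers were read beside it. Albumin (Alb), the most abundant hepatocyte transcript, averaged 0.91 CPM in control and 0.259 CPM in Hdac1/2-/- libraries. Of 10 tested hepatocyte markers 4 were called higher and 3 lower, against 12.4% and 12.7% of all genes tested, with a median log2 fold change of 1.39. Higher beside Prodh2 were Fga, from 0.0496 to 71.6 CPM on 0 to 6 control counts, Ttr, from 1.56 to 26.3 CPM, Tat, from 0.0793 to 5.35 CPM, and Serpina1a, from 0.106 to 0.94 CPM. Lower were Alb, Hpd, from 5.1 to 1.88 CPM, and Cyp2e1, from 0.831 CPM to 0 counts in all 3 Hdac1/2-/- libraries. The part of hepatocyte genes or cells in the Prodh2 level was not tested.

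Prodh (chromosome 16, 18060357 to 18090203, minus strand) encodes proline dehydrogenase, the mitochondrial enzyme that opens proline breakdown. It stood at 62.4, 39.2 and 70.7 CPM in the controls and at 29.7, 34.6 and 26.7 CPM in H1, H5 and H9. The lowest control, C3, was only just above the highest Hdac1/2-/- library, H5. The log2 difference was -0.92 (SE 0.22), a 1.89-fold lower level, ranging from -1.13 without C3 to -0.74 without C3-3. Prodh overlaps Dgcr6 on the other strand, and whether the counting used strand is not given in the sources used here. Dgcr6 itself was lower as well, at 91.6 ± 15.3 CPM in control and 33.3 ± 6.01 CPM in Hdac1/2-/- libraries (SD, n = 3), and its part in the Prodh counts was not tested.

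The 2 dehydrogenases therefore stood in opposite order in the groups. Per kb of exon, Prodh2 was 0.119 ± 0.0450 times Prodh in control and 10.5 ± 2.28 times Prodh in Hdac1/2-/- libraries. Exon length was the union over all annotated transcripts, 7797 bases for Prodh and 2459 for Prodh2, and ratios between genes depend on it. In plain CPM, Prodh2 averaged 2 and 99.2 in the groups and Prodh 57.4 and 30.3. Of the summed level of both, Prodh2 held 8.21% to 14.6% in control libraries and 89.6% to 92.9% in Hdac1/2-/- libraries. Among the enzymes that follow, Aldh4a1 takes P5C and its hydroxylated form on to glutamate derivatives. It stood at 55.4 ± 32.3 and 126 ± 12.4 CPM (log2 fold change 1.18, adjusted p = 0.052, edgeR) and was not called. Every Hdac1/2-/- library, at 118, 140 and 119 CPM, lay above every control, at 27.1, 48.5 and 90.5 CPM. Non-overlap in this direction was seen for 26.7% of all genes tested. Hoga1, the last enzyme of hydroxyproline breakdown, stood at 1.77 ± 0.942 and 1.41 ± 0.0832 CPM (log2 fold change -0.32, adjusted p = 0.61, edgeR). The aspartate aminotransferases Got1 and Got2, of which Got2 also acts on a hydroxyproline product, rose by 1.85 and 1.25 on the log2 scale (adjusted p = 0.00021 and 0.0014, edgeR), and were named here after their values had been seen.

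**Figure D2:**
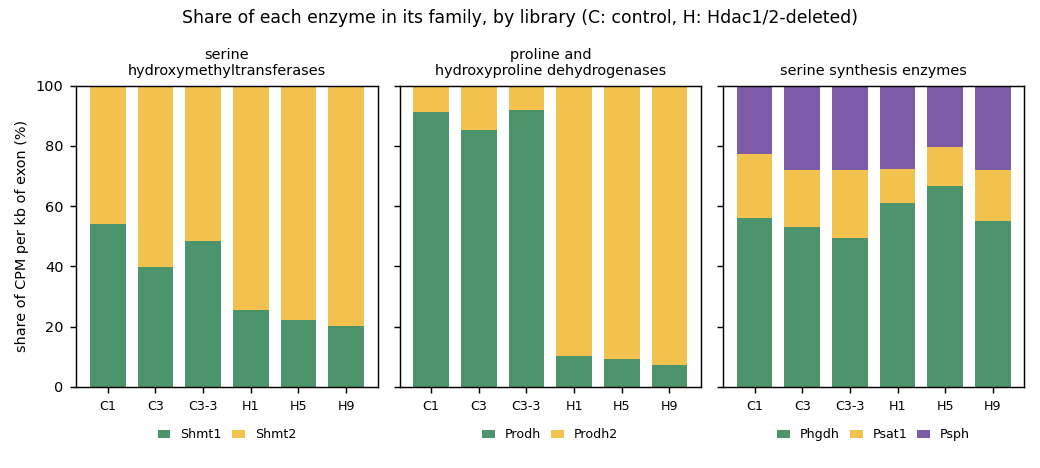
Share of each enzyme in the summed CPM per kb of exon of its family (vertical axis, percent), one bar per library, C for control and H for Hdac1/2-deleted. Prodh2 takes the place of Prodh as the larger share in H1, H5 and H9, and Shmt2 holds 74.5% to 79.7% there against 46.0% to 60.1% in control.

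Aldh18a1 (chromosome 19, 40550257 to 40588463, minus strand) encodes the P5C synthase that commits glutamate to proline and ornithine. Its level was 465, 747 and 341 CPM in the controls and 267, 300 and 321 CPM in H1, H5 and H9. C3 was far above the other controls, and C3-3 was close to H9. The log2 difference of -0.81 (SE 0.27), or 1.75-fold lower, became -0.44 when C3 was left out and -1.02 without C3-3, so its size rests on these libraries. The control libraries varied by 40.2% (coefficient of variation) and the Hdac1/2-/- libraries by 9.20%.

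Pycr1 (chromosome 11, 120635712 to 120643769, minus strand) encodes a mitochondrial P5C reductase, which completes proline synthesis. It was low throughout, at 1.65, 1.55 and 1.2 CPM in the controls and 0.445, 0.763 and 0.455 CPM in H1, H5 and H9. All 3 Hdac1/2-/- values were below the lowest control. The log2 difference was -1.42 (SE 0.37), or 2.67-fold lower, and ranged from -1.69 to -1.28 with 1 library left out. Only 64 to 109 counts per control library and 28 to 33 per Hdac1/2-/- library stood behind it, and Pycr1 was no longer called without H1 or without H9.

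Another reductase gene of the same step, the cytosolic Pycrl, stood at 68.7 ± 5.15 CPM in control and 93.0 ± 1.86 CPM in Hdac1/2-/- libraries (log2 fold change 0.44, adjusted p = 0.019, edgeR), short of 2-fold. Oat, which links ornithine to P5C, was at 1360 ± 174 and 712 ± 103 CPM (log2 fold change -0.93, adjusted p = 0.0033, edgeR) and missed 2-fold. The Aldh18a1 to Oat ratio overlapped between the groups, at 0.221 ± 0.0875 and 0.243 ± 0.0322.

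Of 13 other proline, hydroxyproline and ornithine enzymes, 2 rose and 2 fell (30.8% called, against 25.2% of all genes tested), with a median log2 fold change of 0.44. With DESeq2, and likewise without C3-3, 3 were called higher. Ass1 and Asl, which make arginine from citrulline, rose from 2.46 ± 0.699 to 32.2 ± 9.13 CPM and from 29.0 ± 4.29 to 86.4 ± 10.2 CPM (adjusted p = 4e-05 and 0.00012, edgeR). The mitochondrial arginase Arg2 fell from 755 ± 180 to 199 ± 59.2 CPM (adjusted p = 0.00071, edgeR). Pepd, which frees proline from dipeptides, fell from 702 ± 55.5 to 337 ± 53.7 CPM (adjusted p = 0.0012, edgeR), but was not called without H1 or with library totals in place of TMM scaling.

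**Figure D3:**
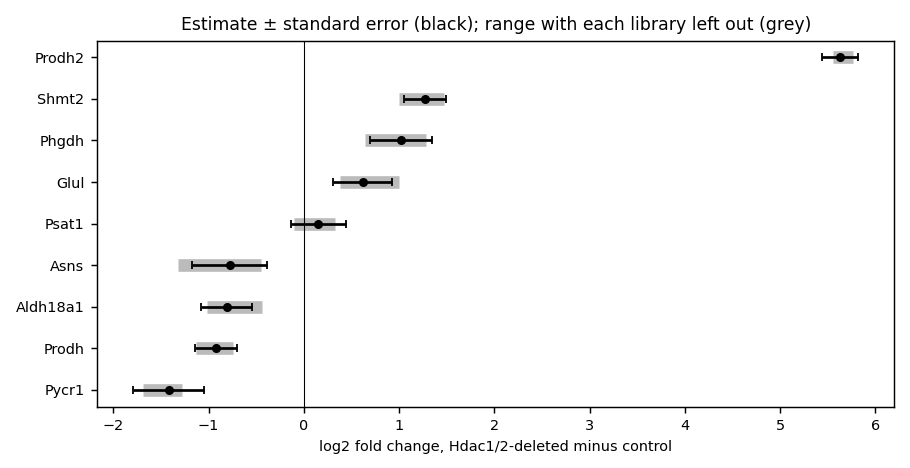
Log2 fold change of each of the 9 genes, Hdac1/2-deleted minus control (horizontal axis), as estimate ± standard error in black, with the range of estimates when each library is left out in grey. Prodh2 lies at 5.63, the others lie between -1.42 and 1.27, and only the grey range of Psat1 spans 0.

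Glul (chromosome 1, 153899944 to 153909723, plus strand) encodes glutamine synthetase. Its level was 61.8, 31.6 and 34.2 CPM in C1, C3 and C3-3 and 63.6, 86.0 and 46.8 CPM in H1, H5 and H9. The control C1 stood well above the other controls and above H9, so the groups overlapped. The log2 difference of 0.62 (SE 0.31), or 1.54-fold, was 0.38 without H5, 0.45 without C3 and 1.0 without C1. Glud1, which turns glutamate, the substrate of Glul, to 2-oxoglutarate, stood at 771 ± 379 and 376 ± 107 CPM (log2 fold change -1.04, adjusted p = 0.091, edgeR). Its levels were 906, 344 and 1065 CPM in C1, C3 and C3-3 and 412, 256 and 460 CPM in H1, H5 and H9. Only C3 among the controls lay within the Hdac1/2-/- range.

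Asns (chromosome 6, 7675169 to 7693254, minus strand) encodes asparagine synthetase, a standard ATF4 target. It stood at 19.0, 13.5 and 15.7 CPM in the controls and 8.23, 15.3 and 4.58 CPM in H1, H5 and H9. H5 lay among the controls, whereas H1 and H9 were below them all. The 3 Hdac1/2-/- libraries differed from each other by up to 3.34-fold, the widest spread of the 9 genes (coefficient of variation 58.2%). The log2 difference of -0.78 (SE 0.39), or 1.72-fold lower, was -1.32 without H5 and -0.45 without H9.

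Of 21 other glutamine, glutamate, aspartate and asparagine genes, 5 rose and 0 fell by the edgeR test (23.8% called, against 25.2% overall). At an unadjusted p below 0.05, with no fold limit, 6 were lower, and DESeq2 called 1 lower. The 5 that rose were Got1, Got2, Abat (not without C1), Aspg and Gfpt2. Aspg, an asparaginase, rose from 2.92 ± 0.8 to 40.1 ± 3.58 CPM (adjusted p = 1e-05, edgeR). Gfpt2, which uses glutamine to make amino sugars, rose from 0.110 ± 0.0877 to 2.79 ± 0.655 CPM (adjusted p = 0.00051, edgeR), with 1 to 10 counts per control library.

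Phgdh (chromosome 3, 98313170 to 98339990, minus strand) encodes the first enzyme of serine synthesis. Its level was 7.11, 5.01 and 4.59 CPM in the controls and 10.4, 16.6 and 6.81 CPM in H1, H5 and H9. H1 and H5 were above all controls, and H9 was just below C1. The log2 difference was 1.02 (SE 0.33), or 2.02-fold, and ranged from 0.64 without H5 to 1.28 without H9. Phgdh met the call rule in only 2 of 6 fits that left out 1 library and lost it without H1, H5, C3 or C3-3. The annotation holds a pseudogene, Phgdh-ps1, and whether reads of it entered the Phgdh counts was not tested.

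Psat1 (chromosome 19, 15904678 to 15947337, minus strand) encodes the aminotransferase of the next step. It stood at 4.60, 3.04 and 3.56 CPM in the controls and 3.42, 5.48 and 3.54 CPM in H1, H5 and H9, and 2 of the Hdac1/2-/- libraries lay within the control range. The log2 difference of 0.15 (SE 0.29) was 0.02 without C3 and turned to -0.10 without H5. Psph, which completes the path, was at 4.72 ± 0.288 and 7.69 ± 1.47 CPM (log2 fold change 0.70, adjusted p = 0.034, edgeR) and missed 2-fold.

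The 3 steps of serine synthesis were then set against each other. Per kb of exon, Phgdh was 2.64, 2.81 and 2.21 times Psat1 in the controls and 5.24, 5.20 and 3.29 times in H1, H5 and H9, with no overlap. Psat1 made up 20.8% ± 1.83 of the 3 in control and 13.8% ± 2.69 in Hdac1/2-/- libraries, while Phgdh made up 52.9% ± 3.19 and 61.0% ± 5.82 (SD, n = 3).

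Shmt2 (chromosome 10, 127517123 to 127522444, minus strand) encodes the mitochondrial serine hydroxymethyltransferase. Its level was 28.9, 26.9 and 26 CPM in the controls and 61.7, 88.8 and 46.7 CPM in H1, H5 and H9. The controls lay close together, with a coefficient of variation of 5.56%, and all Hdac1/2-/- values were well above them and further apart, at 32.4%. The log2 difference was 1.27 (SE 0.22), or 2.41-fold, from 1.0 without H5, where the call was lost, to 1.47 without H9. Shmt2 and Glul overlap Ndufa4l2 and Teddm2 on the other strand, which averaged no more than 0.0805 CPM in either group.

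The cytosolic counterpart Shmt1 was at 31.7 ± 10.1 and 24.3 ± 8.62 CPM (log2 fold change -0.38, adjusted p = 0.37, edgeR). Per kb of exon, Shmt2 was 1.14 ± 0.335 times Shmt1 in control and 3.45 ± 0.505 times in Hdac1/2-/- libraries, without overlap. The mitochondrial folate enzymes that take on the one-carbon unit from Shmt2 were not called. Mthfd2 was at 8 ± 1.28 and 7.80 ± 2.90 CPM (log2 fold change -0.04, adjusted p = 0.93, edgeR), Mthfd1l at 5.74 ± 0.593 and 10.2 ± 1.84 CPM (0.82, adjusted p = 0.014, edgeR), and Aldh1l2, too low to be tested, at 0.285 and 0.0795 CPM.

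Of 24 other serine, glycine and one-carbon genes tested, 6 rose and 1 fell (29.2% called, against 25.2% overall). The largest rises were of Gnmt, which methylates glycine, from 0.159 ± 0.0614 to 3.56 ± 0.535 CPM (adjusted p = 5.4e-05, edgeR), and of Gldc, of the glycine cleavage system, from 0.0638 ± 0.0632 to 0.632 ± 0.231 CPM (adjusted p = 0.0048, edgeR) on 1 to 9 control counts. The serine racemase Srr fell from 59.7 ± 20.3 to 26.8 ± 3.06 CPM (adjusted p = 0.0053, edgeR), and this call was lost without C3 and with library totals. Cbs and Gcat, counted as higher, were called in 2 and 3 of the 6 fits that left out 1 library, and both lost the call without H5 or C3-3, Cbs also without H1 or C3 and Gcat without C1.

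Ordered by level per kb of exon, the 9 genes took other places in the groups. In control libraries Aldh18a1 was first at 127 ± 51.1 CPM per kb, followed by Glul (12.8 ± 5.04), Shmt2 (8.78 ± 0.488), Prodh (7.36 ± 2.09), Asns (5.87 ± 1.01), Phgdh (2.24 ± 0.544), Psat1 (0.878 ± 0.187), Prodh2 (0.812 ± 0.0446) and Pycr1 (0.373 ± 0.0589). The ranges of Shmt2 and Prodh, of Prodh and Asns and of Psat1 and Prodh2 overlapped. In Hdac1/2-/- libraries Aldh18a1 was again first at 72.7 ± 6.69 CPM per kb, and Prodh2 came next at 40.4 ± 6.59. Shmt2 (21.1 ± 6.86) and Glul (19.7 ± 5.92) followed with overlapping ranges, then Phgdh (4.55 ± 2.00), Prodh (3.89 ± 0.515) and Asns (3.43 ± 2.00), which also overlapped from one to the next, and Psat1 and Pycr1 were last. Among all genes tested, Prodh2 stood at percentile 32.7 of level per kb in control and 91.7 in Hdac1/2-/- libraries, and Aldh18a1 at 97.0 and 95.3.

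The order of the libraries within a group recurred over several of the 9 genes. H5 was the highest of the 3 for 7 of 9 genes and H9 the lowest for 5 of 9, whereas over all genes tested H5 was highest for 33.8% and H9 lowest for 29.5%. Among the controls C1 was highest for 6 of 9 genes, and for 38.0% of all genes tested. H5 also had the fewest counts of the 6 libraries.

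The 17 S phase and mitosis genes read beside them showed a library order as well, with C1 the highest control and H9 the lowest Hdac1/2-/- library for 17 of 17. They summed to 688, 410 and 471 CPM in C1, C3 and C3-3 and to 734, 719 and 451 CPM in H1, H5 and H9, so the groups overlapped. Of these genes 2 were called higher, Rrm2 and Mcm2, each in only 2 of 6 fits that left out 1 library (lost without H1, H5, C3 or C3-3), and 0 lower by the edgeR test (11.8% called, against 25.2% overall). By DESeq2 0 were lower as well, and at an unadjusted p below 0.05 it was 1.

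Set against this sum, in a scale chosen after the data had been seen, Shmt2 stood at 42.1, 65.8 and 55.1 CPM per 1000 CPM in the controls and at 84.1, 124 and 104 in H1, H5 and H9. Phgdh, which overlapped on the plain scale, was at 10.3, 12.2 and 9.74 in the controls and 14.2, 23.1 and 15.1 in the Hdac1/2-/- libraries and no longer did. Asns parted in the same way, in the lower direction, with 27.6, 32.9 and 33.4 against 11.2, 21.3 and 10.2. Aldh18a1, apart on the plain scale, overlapped on this one, at 675, 1824 and 724 in the controls and 364, 417 and 712 in H1, H5 and H9. For Glul, at 89.9, 77.2 and 72.6 against 86.7, 120 and 104, the groups still overlapped. The part of dividing cells in these levels was not tested.

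**Figure D4:**
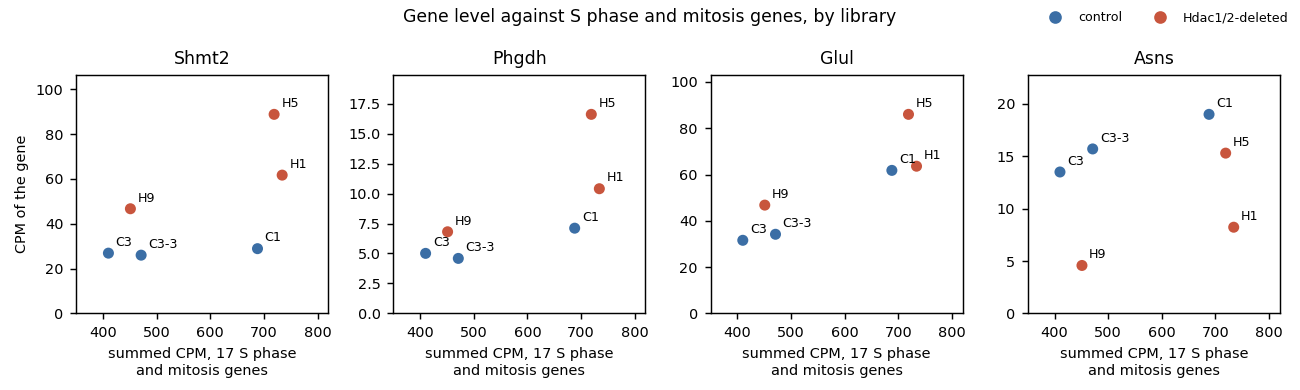
CPM of Shmt2, Phgdh, Glul and Asns (vertical axes from 0) against the summed CPM of 17 S phase and mitosis genes (horizontal axis, not from 0), one point per library, blue for control and red for Hdac1/2-deleted. At like sums the red points lie above the blue ones for Shmt2 and Phgdh and below them for Asns, and for Glul the points of C1 and H1 nearly coincide.

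Profiles over the 6 libraries were compared by the Euclidean distance between centred log2 CPM values, as a description over 6 points that share their libraries. A prior count of 2 was added for these log2 values, which flattens differences between genes at very low levels. The nearest genes to Prodh2 were Arhgap22 (distance 0.32) and Car5a (0.42). These averaged 0.0988 and 0 CPM in control, and their log2 fold changes were 5.85 and 9.77, so the profiles are not alike in size. Nearest were also Ube2c (0.21) and Uhrf1 (0.23) to Glul, Cit (0.21) and Wwtr1 (0.27) to Phgdh, and Spire1 and St3gal3 (both 0.21) to Shmt2. For Prodh they were Enc1 (0.18) and Ly6e (0.23), for Pycr1 Lynx1 (0.15) and Camk2n2 (0.17), and for Aldh18a1 Itga10 (0.32) and Dab1 (0.34). Asns was nearest to Esrrg (0.41) and Gm11545 (0.42), and Psat1 to Rpl9-ps7 and Gm9385 (both 0.14). Among the 9 genes themselves the closest pairs were Phgdh with Shmt2 (0.55) and Glul with Phgdh (0.57), and Prodh2 was far from all others (5.42 to Shmt2).

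Carriers that bring in the substrates of these enzymes changed in both directions, with 5 of 17 tested called higher and 2 lower (41.2% called, against 25.2% overall). The glutamine carrier Slc38a3 rose from 0.348 ± 0.140 to 85.4 ± 20.9 CPM (log2 fold change 7.95, adjusted p = 2.8e-06, edgeR), and Slc1a5, which exchanges glutamine for other neutral amino acids, from 26.7 ± 2.90 to 64.2 ± 4.39 CPM (adjusted p = 0.00019, edgeR). Slc7a5, which carries large neutral amino acids, rose from 4.55 ± 1.47 to 17.3 ± 7.53 CPM (adjusted p = 0.0031, edgeR). The proline carrier Slc6a20a fell from 485 ± 124 to 106 ± 31.1 CPM and the neutral amino acid carrier Slc6a19 from 1007 ± 255 to 259 ± 88.0 CPM (adjusted p = 0.00042 and 0.00092, edgeR). Slc3a2, the partner of Slc7a5, was at 669 ± 96.3 and 486 ± 130 CPM (adjusted p = 0.13, edgeR), and Slc7a11 was too low to be tested. Slc1a4, counted as higher, lost its call without H5, C3 or C3-3.

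Asns, Psat1, Phgdh, Shmt2, Pycr1 and Aldh18a1 are known ATF4 targets, and the rest of that response was read beside them. Of 21 genes 4 rose and 1 fell (23.8% called, against 25.2% overall), with a median log2 fold change of 0.01. Atf4 mRNA was at 151 ± 6.10 and 111 ± 25.4 CPM (log2 fold change -0.44, adjusted p = 0.072, edgeR). Among its targets in the list, Ddit3, Trib3 and Chac1 had log2 fold changes of 0.01, 0.13 and -0.20 (adjusted p = 0.97, 0.80 and 0.87, edgeR). The called genes of the list are also counted among its known targets. Atf5 rose from 11.6 ± 1.28 to 47.1 ± 18.9 CPM, Eif4ebp1, a brake on translation, from 13.0 ± 4.98 to 90.8 ± 4.24 CPM, and Stc2 from 0.0817 ± 0.0697 to 1.43 ± 0.582 CPM on 2 to 9 control counts (adjusted p = 0.00059, 0.00017 and 0.0011, edgeR). Gdf15 rose from 0.478 ± 0.271 to 1.67 ± 0.128 CPM on 19 to 42 control counts (adjusted p = 0.0091, edgeR). Nupr1 fell from 6.72 ± 2.77 to 0.278 ± 0.215 CPM (adjusted p = 0.00043, edgeR).

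The 20 cytosolic aminoacyl-tRNA synthetases, which load the amino acids onto tRNA, had 18 log2 fold changes above 0 and a median of 0.70. Only 3, Farsb, Vars and Iars, passed both limits and 0 fell (15.0% called by edgeR, against 25.2% overall), and 16 passed the adjusted p alone, as did 40.8% of all genes tested. Iars lost its call without C3-3. None was lower at an unadjusted p below 0.05, and DESeq2 called 0 lower. H5 was the highest Hdac1/2-/- library for 18 of 20, as it was for 7 of the 9 enzyme genes.

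**Figure D5:**
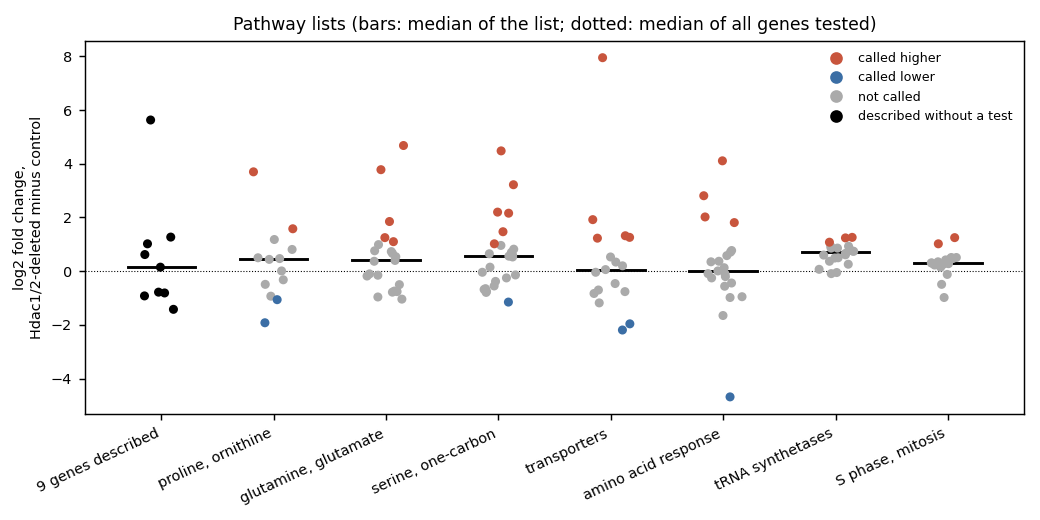
Log2 fold change (vertical axis, Hdac1/2-deleted minus control) of the 9 enzyme genes, in black, and of the genes of each pathway list, red where called higher, blue where called lower and grey where not called. Bars are list medians and the dotted line is the median of all genes tested, -0.01. The 9 genes spread to both sides of the line, and 18 of 20 tRNA synthetases lie above 0.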

How the data were processed

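RNA-Seq counts per gene, as deposited by the authors, were used for 3 control and 3 Hdac1/2-deleted libraries. Reads had been aligned with STAR. The submitters' processing notes name STAR 2.4.0f1, bcl2fastq 1.8.4 and the build mm9, whereas the study's methods name GRCm38, and the counting program, its annotation and its use of strand are not given in the sources used here. The table also holds the authors' normalized score per library, which is the count times 1 factor per library, rounded, and columns of their own comparison (fold changes, mean log2 CPM and p-values). None of these was used.

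Gene positions and exon lengths (union over all annotated transcripts) were taken by Ensembl identifier from GENCODE M21 (GRCm38) and promoter windows from RefSeq. Counts were filtered with filterByExpr, scaled by TMM and fitted with edgeR 4.0.16 (robust quasi-likelihood test, prior count 0.125, R 4.3.3), with Benjamini-Hochberg adjustment over the 15618 genes tested. The study itself used DESeq. Calls needed an adjusted p no larger than 0.05 together with a 2-fold change or more. CPM are counts per 1000000 of the TMM-scaled library total, and a level of 3 counts corresponds to 0.0405 to 0.079 CPM by library. Values are mean ± SD. The script was tested on simulated data.

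The 9 genes and all lists were chosen with earlier results of these data known. From each list, genes listed by name (neighbours of the 9 enzymes, their carriers, Atf4, Atf5, Ddit3, Trib3 and Chac1) were named, with the 2 largest rises and 2 largest falls among called genes, and for each of the 9 the 2 genes of nearest profile. Got1, Got2, Abat, Hoga1, Cbs, Gcat, Slc1a4, Gdf15, Iars, genes overlapping the 9 and single marker genes were named outside this rule, after their values had been seen. Some genes of the rule are not reported here. Each library is 1 mouse. Alternatives were another scaling, other filters, DESeq2 1.42.0, a fit that was not robust, another prior count, no fold limit, and each library left out in turn. Levels relative to S phase and mitosis genes were added after the data had been seen.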

Additional observations from a re-analysis of the deposited data

How the results depend on the processing

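Of 126 alternative log2 fold changes of the 9 genes, 125 moved by less than 1 SD between replicates and 124 kept their sign. With 3 libraries per group, leaving 1 out can hardly move an estimate by 1 SD, so this tally is a weak check. Counted as within 1 SD were Aldh18a1, from -0.81 to -0.44 without C3, and Asns, from -0.78 to -1.32 without H5. Psat1 went to -0.10 without H5 and to -0.14 relative to the S phase and mitosis genes, and Prodh2 to 5.34 on that scale. Of 224 alternative counts of called genes, 188 stayed within 1.5 times. With library totals in place of TMM, 2463 genes were called higher and 1538 lower, against 1944 and 1990. Then 1 proline and ornithine gene and 0 serine genes were called lower and 7 tRNA synthetases higher. With no fold limit 3198 genes were higher and 3168 lower. In the lists this gave 4 higher and 4 lower for proline and ornithine, 4 lower for glutamine, 4 lower for serine, 5 lower for carriers, 3 lower for the amino acid response and 16 higher for tRNA synthetases. With DESeq2, 1 glutamine gene and 2 genes of the amino acid response were lower, as were 2 of the latter without the robust option and 0 with at least 10 counts in every library. With no filter 2 serine genes were lower. With 1 library left out, lower calls were 1 to 3 for proline and ornithine, 0 to 1 for glutamine, 1 to 2 for serine and 1 to 3 for the amino acid response. Higher calls were 5 to 8 for glutamine and 2 to 6 for tRNA synthetases, and S phase and mitosis genes had 0 to 2 higher and 0 to 1 lower. The cause of these shifts was not tested, other than the fold limit itself. No paired analysis was made because the labels give no pairs of mice across the groups. Depth limits Pycr1 most, with a counting error of up to 18.9% in a library.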
